A study of Rattus norvegicus with 6 samples.

Results

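The genes described here are 41 genes of the cell division cycle, listed by name: 32 that act in mitosis and 9 that act in DNA replication (Mcm2 to Mcm7, Pcna, Rrm2 and Tyms). Features of the rat microarray were matched to them by the gene symbol of the platform annotation. Of the 41, 40 had at least 1 feature that carried their symbol alone, among 14871 symbols in all; Nek2, a mitotic kinase gene, had none and has no value here. The samples are male Wistar rats, an outbred laboratory strain, caged alone from 21 days of age with screens between cages and sampled at 60 days. Tickled rats were tickled on weekdays for 4 weeks to imitate rough-and-tumble play; a session had 2 sets of 4 cycles, each cycle 15 s without and 15 s with stimulation. Light-touched rats served as the handling control and unstimulated rats received nothing. Striatum, salivary glands and peripheral leukocytes were each measured on 2 two-colour arrays, tickled against unstimulated and tickled against light-touched, named below by their comparator, no stimulus or light touch.

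Each comparison is a single array that was neither repeated nor dye-swapped. Differences below therefore carry no p-value and no replicate error, and precision is limited by the number of arrays. Tickled RNA was in Cy5 on all 6 arrays per the labels, and a positive log2 ratio is taken as higher in tickled; neither the direction nor the log base is stated with the values, and natural logs would make every printed log2 value 1.44 times as large. Were the direction the reverse, every sign below would turn, and higher and lower would swap throughout. The labels give 4 animals per condition, but the sources used here do not say whether an array holds a pool or 1 animal, nor whether 1 tickled extract was used on both arrays of a tissue. The extraction text of every sample names hypothalamus, whichever tissue its other labels give. The only error that can be measured is how far probes for the same gene differ within an array, with a median standard deviation from 0.09 on the striatal light-touch and salivary light-touch arrays to 0.20 on the leukocyte light-touch array. Between 6182 and 10922 genes had a value per array, and the median of all genes lay between -0.02 and 0.01 on every array. A ratio carries no level, so the tissues could be checked only by which markers had a value. On both striatal arrays 10 of 10 striatal medium spiny neuron markers had one. On the salivary no-stimulus array 4 of them had one, on the salivary light-touch array 6 and on each leukocyte array 2. For duct markers, 13 of 13 had one on both salivary arrays and 4 on each striatal array. Of all genes, 73.4% and 72.9% had a value on the striatal arrays (no stimulus, light touch). On the salivary arrays the shares were 70.8% and 72.1%, and on the leukocyte arrays 42.5% and 41.6%. Of 12 T cell markers, 11 had a value on both leukocyte arrays, but 12 also had one on both salivary arrays, and the lineage gene Cd4 had none in leukocytes.

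Most cells of an adult tissue are not dividing, and the genes of mitosis and replication are then held at a low level. In a cell that commits to division, E2F factors first raise the replication genes, which license and copy the DNA, and the mitotic genes follow in the phase after DNA synthesis. Mitotic promoters typically carry CCAAT boxes, bound by the factor NF-Y, and a cell cycle genes homology region (CHR), bound by MuvB complexes that repress the gene in resting cells and activate it in dividing ones. In the brain, dividing cells lie mainly in the progenitor zone between the striatum and the ventricle and among glial progenitors. Salivary glands of young rats still grow and hold dividing acinar and duct cells, and most leukocytes in blood do not divide.

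Letters of both kinds of site were looked for in the promoters of the listed genes. RefSeq promoter windows of assembly GRCr8, 250 bases before to 50 after the start of the gene, were found for 33 of the 41 genes, 26 mitotic (Nek2 among them) and 7 replication genes. The letters searched, on both strands, were TTTGAA and TTCGAA for the CHR, CCAAT for the NF-Y box, and TTTGGCGC, TTTCCCGC, TTTCGCGC and TTTGCCGC for E2F. Windows of 6 genes are shown because they belong to the genes that lay farthest apart in the results below. They are Cdca8 (chr5:142483150-142483449, minus strand) and Cenpf (chr13:103760837-103761136, minus strand), the lowest mitotic genes with a window on the salivary no-stimulus array, and Kif23 (chr8:71320535-71320834, minus strand), the highest there. Aspm (chr13:53625334-53625633, plus strand) and Ect2 (chr2:111966577-111966876, minus strand) were the highest on the striatal light-touch array. Mcm7 (chr12:22163129-22163428, minus strand), added after its values were seen, is the lowest replication gene with a window on the salivary no-stimulus array. Capitals mark every match to the searched letters, read on either strand.
Cdca8: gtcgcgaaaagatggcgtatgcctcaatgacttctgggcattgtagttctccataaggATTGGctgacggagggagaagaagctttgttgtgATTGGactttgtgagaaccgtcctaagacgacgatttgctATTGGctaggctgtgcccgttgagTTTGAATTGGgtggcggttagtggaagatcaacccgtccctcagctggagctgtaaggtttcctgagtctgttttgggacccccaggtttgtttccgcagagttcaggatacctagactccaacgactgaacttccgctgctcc
Cenpf: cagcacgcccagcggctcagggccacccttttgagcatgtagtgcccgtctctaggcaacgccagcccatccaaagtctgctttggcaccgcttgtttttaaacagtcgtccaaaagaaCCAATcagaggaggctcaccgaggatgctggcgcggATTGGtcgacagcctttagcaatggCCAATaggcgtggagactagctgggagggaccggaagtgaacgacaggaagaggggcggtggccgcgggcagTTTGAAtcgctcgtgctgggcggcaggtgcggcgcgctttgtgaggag
Kif23: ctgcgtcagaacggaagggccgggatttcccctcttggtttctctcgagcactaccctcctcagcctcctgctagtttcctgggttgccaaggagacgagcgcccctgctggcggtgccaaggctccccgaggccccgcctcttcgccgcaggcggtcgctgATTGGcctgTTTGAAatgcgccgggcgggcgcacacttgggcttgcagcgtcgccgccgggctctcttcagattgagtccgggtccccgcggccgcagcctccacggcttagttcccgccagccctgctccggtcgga
Aspm: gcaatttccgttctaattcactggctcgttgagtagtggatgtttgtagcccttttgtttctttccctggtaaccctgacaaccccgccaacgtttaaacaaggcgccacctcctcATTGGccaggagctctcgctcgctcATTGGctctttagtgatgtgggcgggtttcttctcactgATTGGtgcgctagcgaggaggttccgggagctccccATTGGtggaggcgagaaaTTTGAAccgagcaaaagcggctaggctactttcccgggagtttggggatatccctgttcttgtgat
Ect2: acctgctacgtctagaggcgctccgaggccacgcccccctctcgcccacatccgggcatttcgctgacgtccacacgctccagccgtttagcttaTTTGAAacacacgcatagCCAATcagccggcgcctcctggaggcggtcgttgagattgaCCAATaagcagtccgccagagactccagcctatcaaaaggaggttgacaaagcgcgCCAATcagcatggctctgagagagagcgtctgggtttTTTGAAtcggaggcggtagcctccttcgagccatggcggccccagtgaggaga
Mcm7: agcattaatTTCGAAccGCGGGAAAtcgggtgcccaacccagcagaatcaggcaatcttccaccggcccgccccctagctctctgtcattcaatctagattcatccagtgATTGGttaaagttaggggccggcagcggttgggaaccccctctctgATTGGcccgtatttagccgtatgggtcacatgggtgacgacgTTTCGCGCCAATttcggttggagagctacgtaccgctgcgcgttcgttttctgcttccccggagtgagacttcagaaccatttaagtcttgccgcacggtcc
In the Cdca8 window the CHR began 94 bases before the start and its last base was shared with a CCAAT box on the other strand. The Mcm7 window held 2 E2F matches, the one nearer to the start overlapping a CCAAT box, and a CHR of the TTCGAA form far upstream.

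Of the 26 mitotic windows, 18 (69.2%) held a CHR in either form, against 19.5% of all 27457 windows in the table. A CCAAT box was in 21 of them (80.8%), against 37.7% of all windows, and 16 (61.5%) held both, against 7.83%. E2F letters stood in 1 mitotic window (3.85%), that of Cdk1, and in 6 of the 7 replication windows (85.7%), against 2.25% of all windows. Of the replication windows, 2 held a CHR (28.6%), and 5 held a CCAAT box (71.4%). A match is a description of the letters in this window, not a measured site.

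**Figure D1:**
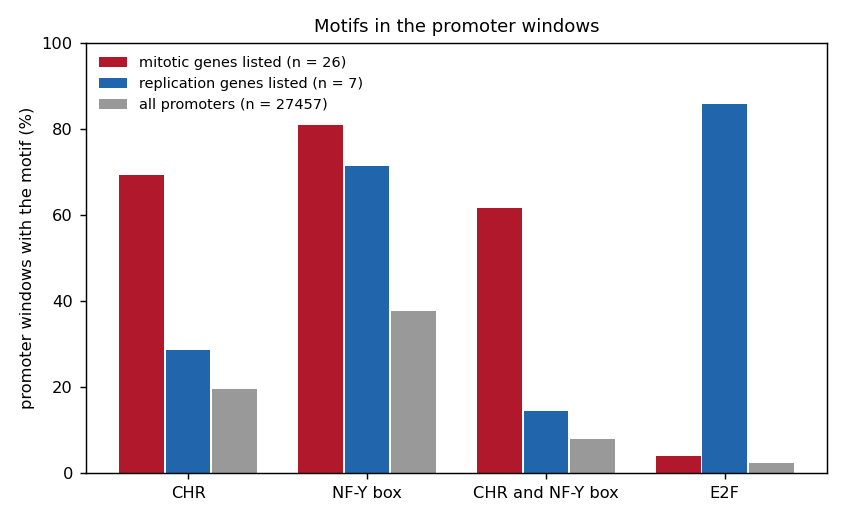
Share of promoter windows of 300 bases (percent) that hold each motif, for the 26 mitotic genes with a window (red), the 7 replication genes with a window (blue) and all 27457 windows (grey). CHR letters were in 69.2% of mitotic windows and E2F letters in 85.7% of replication windows, against 19.5% and 2.25% of all.

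The 40 genes had a value in the salivary glands more often than elsewhere. All 40 (100%) had one on both salivary arrays, where 70.8% and 72.1% of all genes had one. In striatum 34 (85%) had a value on the no-stimulus and 29 (72.5%) on the light-touch array, against 73.4% and 72.9% of all genes. In leukocytes 14 (35%) had one on each array, against 42.5% and 41.6%. Across the arrays, 13 genes had a value on all 6 and 6 on the salivary arrays only. The last were Cenpf, Kif11, Kif2c, Pbk, Cdca8 and Tyms. How a blank value arises is not stated with the deposited table, so a blank is not read here as absence of the RNA.

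**Figure D2:**
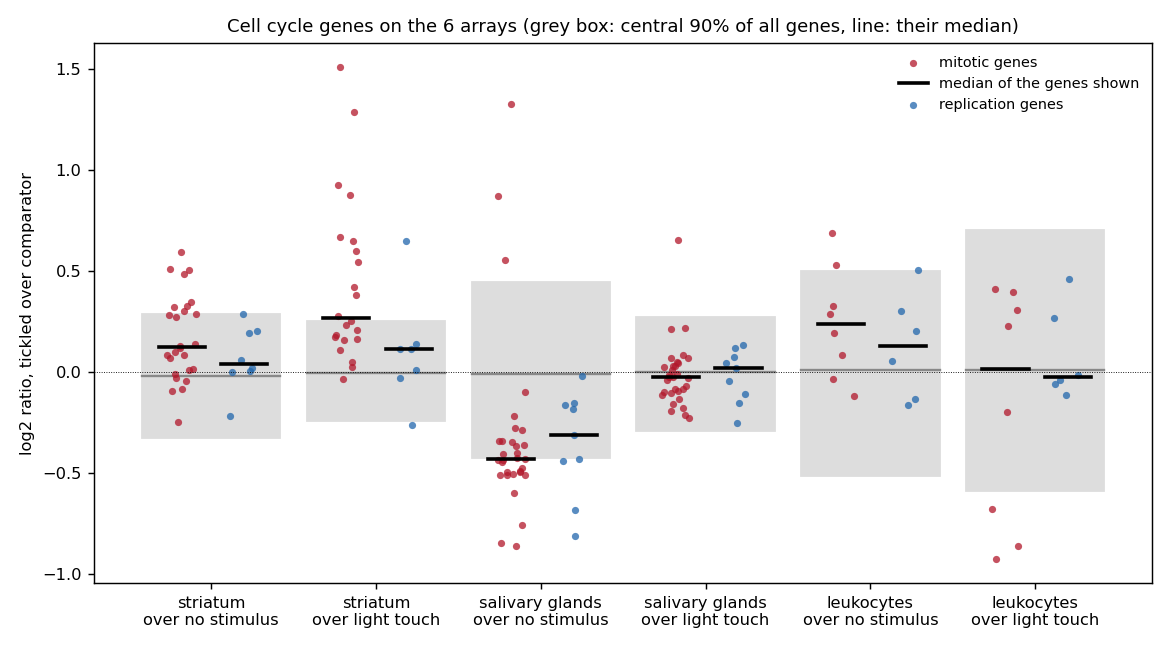
Log2 ratio (tickled over comparator) of each listed gene with a value on each array, mitotic genes in red and replication genes in blue, with black bars at their medians and grey boxes over the central 90% of all genes. On the salivary no-stimulus array 37 of 40 genes lie below 0, and on the striatal light-touch array 26 of 29 lie above 0.

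In salivary glands, cell cycle genes were lower in tickled than in unstimulated rats, and lay close to 0 against light-touched rats. Over no stimulus the 31 mitotic genes had a median log2 ratio of -0.43, which is 1.35-fold lower, and the 9 replication genes had -0.31, or 1.24-fold lower, beside -0.01 for all genes. Of the 40 genes 37 lay below 0, a direction that 51.8% of all genes had. The lowest 5% of all genes on the array (5.01%) held 20 of them, 16 mitotic and 4 replication genes. At least 1.5-fold lower were 6 genes, Cdca8, Ube2c, Rrm2, Cenpf, Mcm4 and Ccnb1, against 2.74% of all genes. At least 1.5-fold higher were 2, Kif23 and Ttk, against 2.94% of all genes. In bulk tissue, fewer dividing cells and less RNA per dividing cell cannot be told apart.

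Over all 31 mitotic genes the salivary no-stimulus values ran from -0.86 for Cdca8 to 1.33 for Kif23, with an interquartile range from -0.50 to -0.34. The 9 replication genes ran from -0.81 for Rrm2 to -0.02 for Tyms. Of 53 probes of the listed genes with a value there, 50 lay below 0, and all 12 genes with 2 or more such probes had probes of 1 sign. The median probe standard deviation of these 12 genes was 0.05, beside 0.10 for all genes with 2 or more probes.

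Among the kinase and cyclins that drive entry into mitosis, Cdk1, the kinase itself, had a log2 ratio of -0.50 against no stimulus and -0.03 against light touch. Ccnb1, its main mitotic cyclin, had probes at -0.61 and -0.59 over no stimulus and a median of -0.03 over light touch. Ccnb2, another B-type cyclin, had -0.43 and 0.03, and Ccna2, the cyclin of DNA synthesis and early mitosis, had -0.49 and 0.21, in the same order. All 4 were thus below 0 over no stimulus, and none was more than 0.03 below 0 over light touch. The kinases Plk1 (-0.51 and -0.16) and Aurka (-0.34 and 0.05), which build the spindle poles, and Pbk, a mitotic kinase (-0.37 and -0.19), were lower over no stimulus as well.

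Of the chromosomal passenger complex, which corrects the attachment of chromosomes, 3 genes are listed, and 1 of them was at least 1.5-fold lower over no stimulus. That gene, Cdca8, which encodes the subunit borealin, had the lowest ratio of all 40, -0.86 or 1.82-fold lower, on the 1 probe with a value. Over light touch its 2 probes were at -0.47 and 0.52, the widest probe disagreement of any listed gene on that array. Aurkb, the kinase of the complex, had -0.45 against no stimulus and 0.07 against light touch, and Birc5 (survivin) had -0.34 and 0.07. Ube2c, a ubiquitin-conjugating enzyme of the anaphase-promoting complex, had -0.84 against no stimulus (1.80-fold lower) and -0.18 against light touch, on 1 of its 2 probes, and its activator Cdc20 had -0.41 and -0.09.

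Other listed genes act on the structure of chromosomes and spindle. Cenpf, which encodes a kinetochore protein, had -0.76 against no stimulus and 0.09 against light touch, each on 1 of its 3 probes. Mki67, the proliferation marker Ki-67, had -0.49 and -0.10, and Top2a, the topoisomerase that untangles chromosomes, had -0.36 and -0.11. Of the 6 spindle and kinesin genes, Kif11, Kif22, Kif2c, Tpx2, Nusap1 and Aspm, all were below 0 over no stimulus, from -0.51 for the spindle motor gene Kif11 to -0.28 for the chromokinesin gene Kif22. Over light touch they ranged from -0.23 to 0.01.

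Over no stimulus 3 mitotic genes, Kif23, Ttk and Kif20a, lay above 0. The other listed genes of cytokinesis (Racgap1, Ect2 and Prc1) and of the spindle checkpoint (Bub1, Bub1b and Mad2l1) lay below 0. Kif23, the motor subunit of centralspindlin, was 2.51-fold higher (1.33) on a single probe and had -0.09 over light touch. Racgap1, which encodes the other subunit of centralspindlin, had 3 probes between -0.54 and -0.41, and -0.14 over light touch. The 2 subunits of 1 complex therefore lay on opposite sides of 0. Kif20a, a motor of the central spindle, had 0.55 against no stimulus and -0.07 against light touch, again on a single probe. Ttk, the checkpoint kinase also called Mps1, was 1.83-fold higher over no stimulus (0.87) and 1.57-fold higher over light touch (0.65), on 1 of 3 probes. Its partners in the checkpoint lay below 0 over no stimulus, with Bub1 at -0.44, Bub1b at -0.51 and Mad2l1 at -0.40. Each of the 3 higher genes thus rests on 1 probe with a value. In the promoter windows, Kif23 and Ttk held both a CHR and a CCAAT box, like most mitotic genes, and Kif20a held a CCAAT box alone.

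Replication genes were all below 0 over no stimulus, 9 of 9. Rrm2, the regulated subunit of ribonucleotide reductase, had 2 probes at -0.82 and -0.81, a median 1.76-fold lower, and 0.13 over light touch. Mcm4, a subunit of the replicative helicase, had a median of -0.68, but its 2 probes were at -1.10 and -0.26, the widest disagreement on that array, and -0.11 over light touch. The 6 helicase genes Mcm2 to Mcm7 ranged from -0.68 to -0.15 over no stimulus and from -0.25 to 0.12 over light touch. Pcna, the sliding clamp, had -0.18 over no stimulus and Tyms, thymidylate synthase, had -0.02, the nearest to 0 of the 9.

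Against light touch the salivary medians were -0.03 for the mitotic and 0.02 for the replication genes, beside -0.00 for all genes. Above 0 were 17 of 40 genes, against 50% of all genes; 1 gene, Ttk, was at least 1.5-fold higher (0.877% of all genes) and 0 were 1.5-fold lower (0.747%). Gene by gene, the no-stimulus value was below the light-touch value for 28 of 31 mitotic and 9 of 9 replication genes, as it was for 5414 of 10344 genes in all. The median differences were -0.36 and -0.27, beside -0.01 over all genes. The widest differences were -0.95 for Rrm2, -0.89 for Cdca8 and -0.84 for Cenpf, and 1.41 for Kif23. If 1 tickled extract was used on both, which is not stated, these differences are those of light touch over no stimulus.

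**Figure D3:**
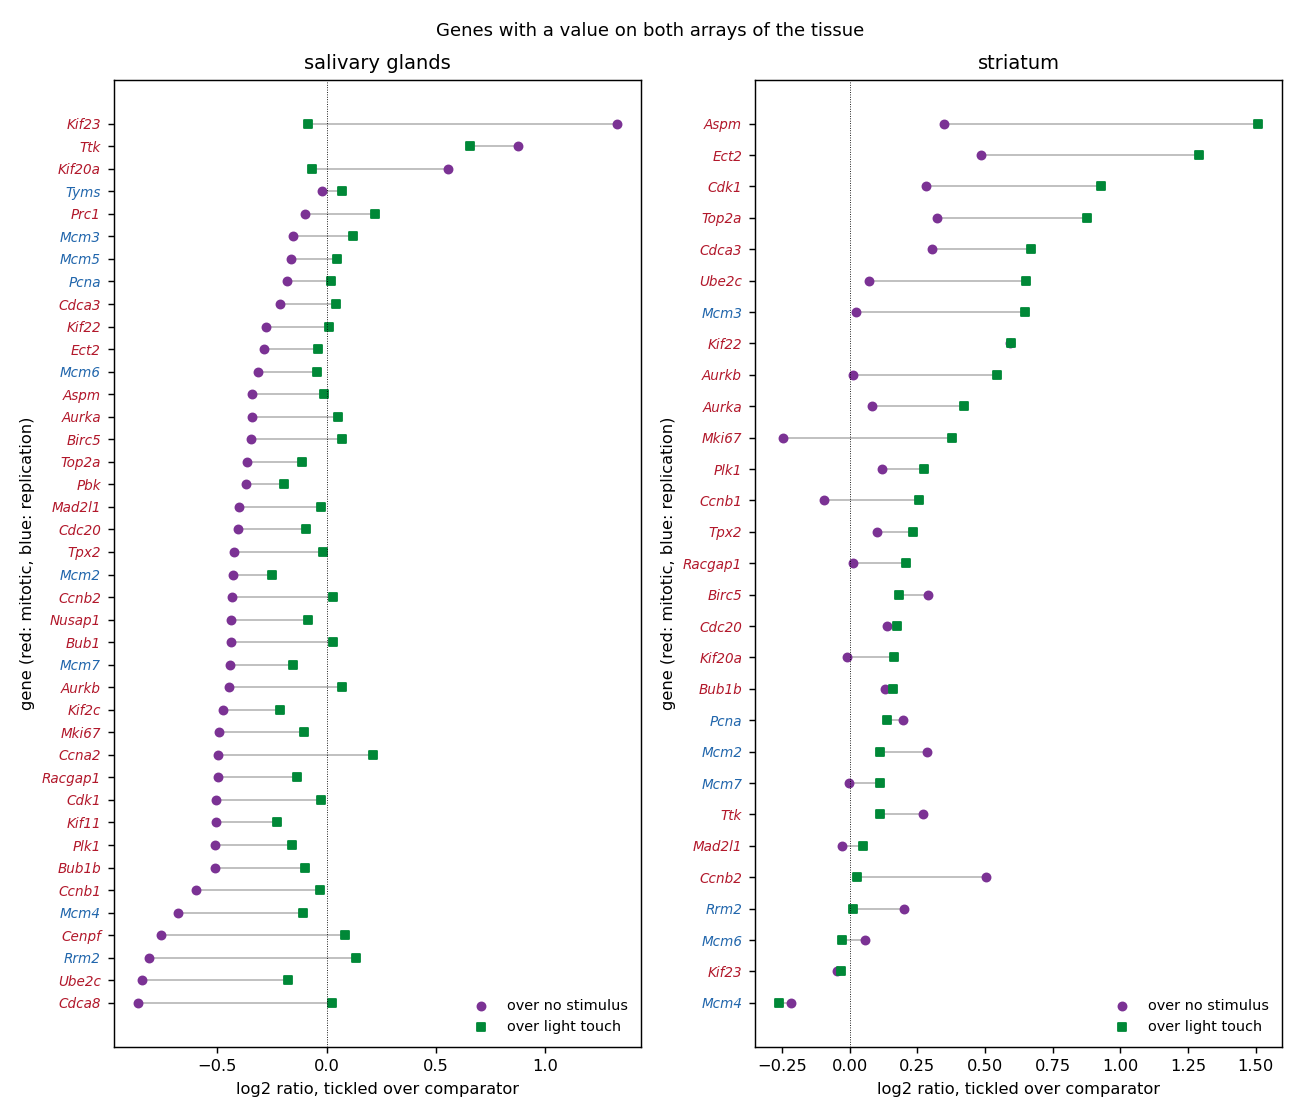
Log2 ratio (tickled over comparator) of each listed gene with a value on both arrays of a tissue, over no stimulus (purple circles) and over light touch (green squares), joined by a line. In salivary glands the circles lie left of the squares for all but Kif23, Kif20a and Ttk; in striatum Aspm and Ect2 reach 1.51 and 1.29 over light touch.

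Other genes of the same pathway, from lists chosen with earlier results of these data known, gave further values on these arrays. Over no stimulus, 43 of 46 other mitotic genes and 46 of 47 other replication genes with a value were below 0, with medians of -0.33 and -0.22, and 20 regulators of the earlier growth phase (G1) had a median of -0.03 with 10 below 0. Of the last, Rbl1, a relative of the retinoblastoma gene, was at least 1.5-fold lower (-0.60, and -0.55 over light touch), and the transcription factor gene E2f3 had -0.64 over light touch and no value over no stimulus. At least 1.5-fold lower were 4 of the other mitotic genes. These were Fam83d, a spindle gene (-0.83 over no stimulus, -0.34 over light touch), Gtse1, expressed in the phase before mitosis (-0.82, with no value over light touch), Cep55, which acts in abscission (-0.78 and -0.35), and Mybl2, the transcription factor B-Myb (-0.59 and -0.05). At least 1.5-fold lower were 3 other replication genes, the kinase gene Cdc7 (-0.76 and -0.72), Uhrf1, which maintains DNA methylation (-0.64 and -0.28), and Cdt1, which loads the helicase (-0.64 and -0.13). None of these 3 lists had a gene 1.5-fold higher over no stimulus. Over light touch the same lists had medians of -0.01, -0.03 and -0.02.

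Markers of gland cells differed on the same array. Acinar markers had a median of -0.997 over no stimulus (8 of 13 at least 1.5-fold lower and 2 higher, with Bpifa2f at -5.93, Csap1 at -4.03 and Bpifb2 at -3.88, but Slc12a2 at 0.90 and Car6 at 0.59) and 0.03 over light touch. Duct markers had 1.05 (7 of 13 at least 1.5-fold higher, with Klk1c9 at 3.73, Klk1c2 at 3.62 and Klk1c12 at 3.08) and -0.19. The 3 duct markers below 0 over no stimulus were the keratin genes Krt19 (-0.53), Krt18 (-0.36) and Krt8 (-0.30). Basal and myoepithelial markers had -0.42 (6 of 6 below 0, Cnn1 at -1.16 and Krt5 at -0.62) and -0.09. Adipocyte markers had -0.74 and 0.84 over 6 genes, 5 of them below 0 over no stimulus and 5 above 0 over light touch. Car3 had -1.68 and 1.61, while Cidec went the other way, at 0.13 and -0.07. Immune markers had 0.12 on both arrays over 7 genes, with Csf1r at 0.66 over no stimulus. The part of these shifts in the cell cycle values was not tested.

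**Figure D4:**
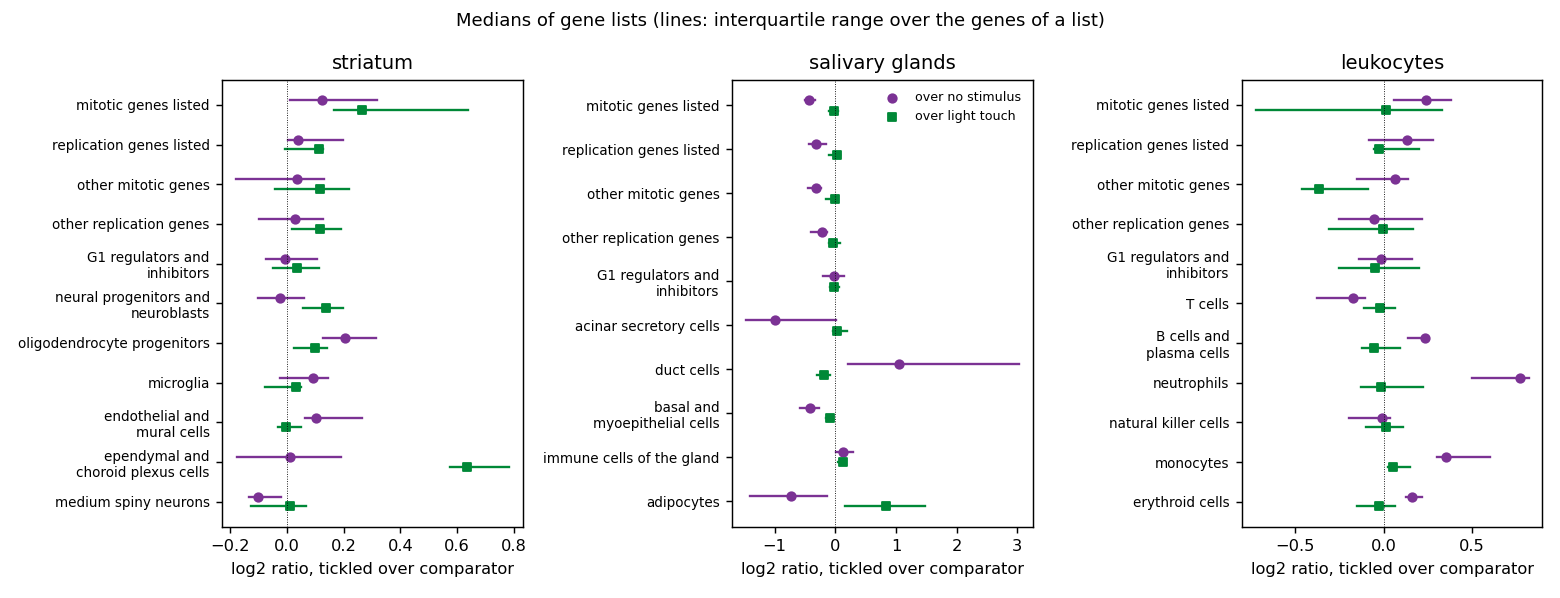
Median log2 ratio (tickled over comparator) of each gene list over no stimulus (purple circles) and light touch (green squares), with lines over the interquartile range of the genes in the list, by tissue. Salivary mitotic genes sit at -0.43 and -0.03 beside acinar markers at -0.997 and 0.03; in striatum ependymal and choroid plexus markers sit at 0.63 over light touch beside mitotic genes at 0.27.

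In striatum, the listed mitotic genes were higher in tickled rats, more so against light touch than against no stimulus, and the listed replication genes lay nearer to 0. Over light touch the 22 mitotic genes with a value had a median of 0.27, or 1.202-fold higher, and the 7 replication genes had 0.11, beside -0.00 for all genes. Above 0 were 21 mitotic and 5 replication genes, 26 of 29, against 49.1% of all genes. The highest 5% of all genes on the array (5%) held 13 of the 29, of which 12 were mitotic. At least 1.5-fold higher were 8, against 0.812% of all genes, and 0 were 1.5-fold lower, against 0.545%. The 8 were Aspm, Ect2, Cdk1, Top2a, Cdca3, Ube2c, Mcm3 and Kif22.

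The 2 highest were Aspm and Ect2. Aspm, which organises spindle poles and is mutated in human microcephaly, was 2.85-fold higher over light touch (1.51, on a single probe) and 1.27-fold higher over no stimulus (0.35). Ect2, the exchange factor that starts the cleavage furrow, was 2.45-fold higher over light touch (1.29) and had 0.48 over no stimulus, on 1 of 3 probes. These were the only listed genes at least 2-fold higher on that array, against 0.0831% of all genes. Racgap1, the partner that recruits Ect2, had 0.21 over light touch and 0.01 over no stimulus, and Kif23 had -0.03 and -0.05.

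Cdk1 had 0.93 over light touch (1.90-fold higher) and 0.28 over no stimulus, on a single probe. Over light touch its cyclin genes with a value were closer to 0, Ccnb1 at 0.26 and Ccnb2 at 0.03, and Ccna2 had no value. Over no stimulus Ccnb1 had -0.09, while Ccnb2 at 0.50 and Ccna2 at 0.51 lay farther from 0 than Cdk1. Ccnb2 was thus the mitotic gene with the widest difference the other way between the arrays, 0.48. Top2a had probes at 0.62 and 1.14 over light touch and at 0.15 and 0.49 over no stimulus. Ube2c had 0.65 and 0.07, Cdca3, a gene needed for entry into mitosis, had 0.67 and 0.30, and Aurkb had 0.55 and 0.01. Mki67 had 0.38 over light touch and -0.25 over no stimulus, on opposite sides of 0. Kif22 had nearly the same ratio on both arrays, 0.60 and 0.59, on 1 of its 2 probes.

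Over no stimulus the striatal mitotic median was 0.13 and the replication median 0.04, beside -0.02 for all genes. Above 0 were 20 of 26 mitotic and 6 of 8 replication genes, against 45.1% of all genes. The highest 5% of all genes (5.01%) held 9 mitotic genes and 0 replication genes. At least 1.5-fold higher was Kif22 alone of 34, against 0.485% of all genes, and 0 were 1.5-fold lower (0.787%). Ccna2, Ccnb2 and Ect2 came next, and Mki67 at -0.25 and Mcm4 at -0.22 were the lowest. The no-stimulus value was below the light-touch value for 19 of 22 mitotic genes with both, as for 5999 of 10706 genes in all, with a median difference of -0.18 beside -0.02. It was below for 2 of 7 replication genes, with a median difference of 0.06.

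Replication genes of the striatum were split by member. Mcm3 had 0.65 over light touch, on 1 of 2 probes, and 0.02 over no stimulus. Mcm4 lay below 0 on both arrays, with probes from -0.27 to -0.25 over light touch and from -0.23 to -0.20 over no stimulus. The helicase genes Mcm2, Mcm6 and Mcm7 lay between -0.03 and 0.11 over light touch, Mcm5 had no value there, and Rrm2 had 0.01. Mcm3 and Mcm4, subunits of 1 helicase, were thus the highest and the lowest of the 7 replication genes with a value there.

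**Figure D5:**
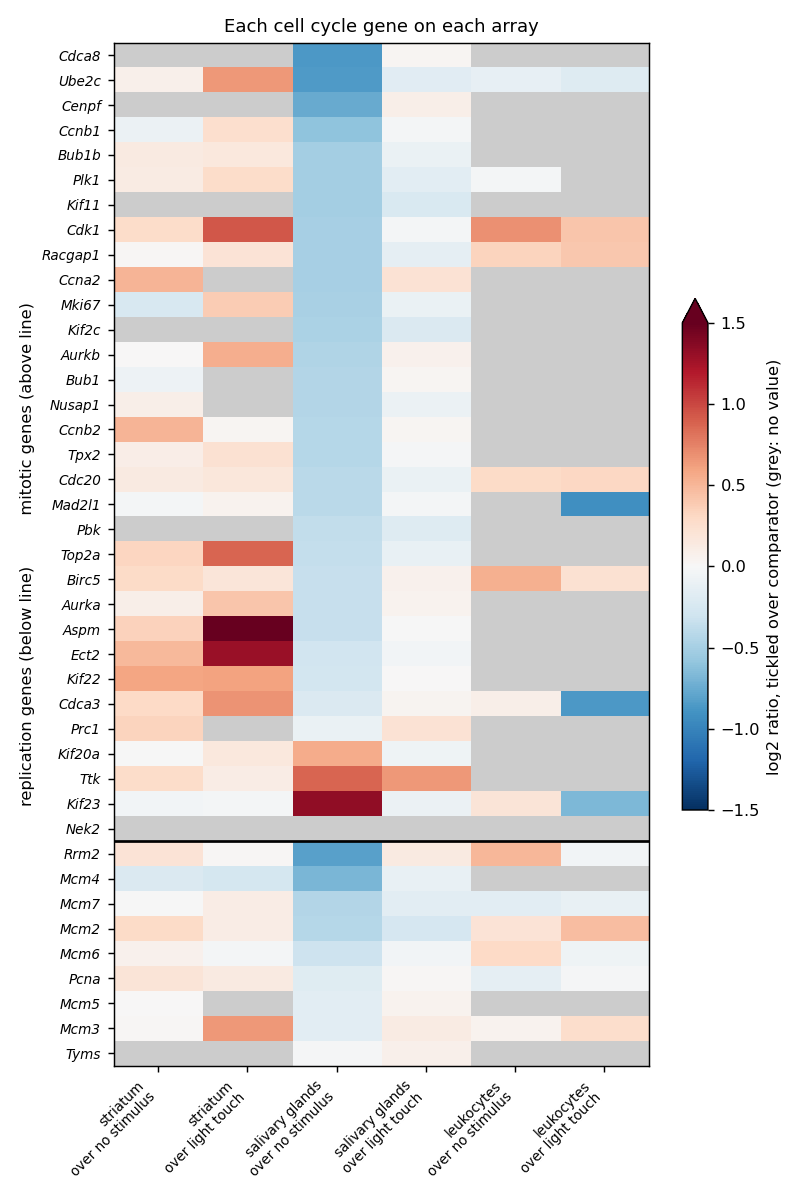
Log2 ratio (tickled over comparator, colour scale from -1.5 to 1.5) of every listed gene on every array, mitotic genes above the line and replication genes below, each ordered by the salivary no-stimulus value; grey marks no value. The salivary no-stimulus column is blue except for Kif20a, Ttk and Kif23 and for Nek2, which has no value, and the striatal light-touch column is darkest for Aspm and Ect2.

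Of the other pathway genes in striatum, the other mitotic genes had medians of 0.12 over light touch (21 of 32 above 0) and 0.04 over no stimulus (17 of 31). At least 1.5-fold higher over light touch were 5 of them: Lmnb1, a nuclear lamina gene (0.97, and -0.39 over no stimulus), Nuf2, of the kinetochore (0.81 and 0.16), Tacc3, of the spindle (0.72, with no value over no stimulus), Foxm1, the transcription factor of mitotic genes (0.65 and 0.09), and Dlgap5, of the spindle (0.59 and 0.04). Bora, an activator of mitotic kinases, was 1.5-fold lower on both arrays (-0.74 over light touch, -0.73 over no stimulus), and Plk4, a centriole kinase (-0.66), and Cks2 (-0.64) were so over no stimulus. Other replication genes had medians of 0.12 (27 of 36 above 0) and 0.03 (20 of 36), with Cdc45, a helicase partner, at 0.82 and 0.57 and Cdca7 at 0.71 and 0.05. Unlike the listed genes, the other replication genes thus had medians about as far from 0 as the other mitotic genes on both arrays. Chek1, a checkpoint kinase gene, had 0.06 against light touch and 0.61 against no stimulus. The growth phase regulators had medians of 0.03 and -0.01 over 19 genes.

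Markers of cells around and within the striatum differed on the same light-touch array. Ependymal and choroid plexus markers had a median of 0.63 over light touch, with 5 of 7 at least 1.5-fold higher, and 0.01 over 6 genes over no stimulus. Ttr, the transthyretin gene of the choroid plexus, had 1.62 over light touch and no value over no stimulus, and the cilia genes Tmem212 and Dynlrb2 had 0.82 and 0.75. Aqp1, a water channel gene of the choroid plexus, lay below 0 on both arrays, at -0.19 against light touch and -0.33 against no stimulus. Markers of neural progenitors and neuroblasts, which border the ventricle too, had 0.14 over light touch (10 of 12 above 0, Dcx at 0.41) and -0.02 over no stimulus (5 of 12). Oligodendrocyte progenitor markers had 0.10 over light touch and 0.21 over no stimulus (7 of 8 above 0, Bcas1 at 0.58), the reverse order of the mitotic genes. Microglia markers had 0.03 and 0.09, endothelial and mural markers -0.00 and 0.10, and medium spiny neuron markers 0.01 and -0.10. The part of the ventricular markers in the mitotic values was not tested.

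In leukocytes only 8 mitotic and 6 replication genes had a value on each array, and most lay above 0 over no stimulus but not over light touch. Over no stimulus the mitotic median was 0.24 and the replication median 0.13, with 10 of 14 above 0, against 52% of all genes. At least 1.5-fold higher was Cdk1 alone (0.69), against 3.21% of all genes, and 0 were 1.5-fold lower (2.9%). Next were Birc5 (0.53) and Rrm2 (0.50, on 1 of 2 probes). The lowest were Mcm7 (-0.16), Pcna (-0.13, on 1 of 2 probes) and Ube2c (-0.12, with probes at -0.29 and 0.05). Over light touch Cdk1 had 0.41, Birc5 0.23 and Rrm2 2 probes at -0.43 and 0.36, so that its sign differs between probes.

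Over light touch the leukocyte medians were 0.02 and -0.03, with 6 of 14 above 0 against 51.4% of all genes, and 0 were 1.5-fold higher against 8.09%. At least 1.5-fold lower were 3, against 5.06% of all genes. These were Mad2l1 (-0.92), with no value over no stimulus, Cdca3 (-0.86, and 0.09 over no stimulus) and Kif23 (-0.68 and 0.19), each on 1 probe. The highest were Mcm2 at 0.46, Cdk1 at 0.41 and Racgap1 at 0.40. Of the other pathway genes, 13 of 16 other mitotic genes were below 0 over light touch, with a median of -0.36, the lowest being Hmmr, a spindle gene (-0.79, and 0.11 over no stimulus), and Cenpk (-0.68 and -0.32); the same list had 0.06 over no stimulus. Other replication genes had medians of -0.00 over light touch and -0.05 over no stimulus. Over light touch 2 of 20 were at least 1.5-fold higher, Cdc45 (0.85) and Rrm1 (0.65), and 1 was lower, Dut (-0.65). Growth phase regulators had medians of -0.05 over light touch (15 genes) and -0.02 over no stimulus (14 genes). Of these, Cdk4 (0.75) and Cdkn1c (0.62) were 1.5-fold higher over light touch, and Gadd45b (0.59) over no stimulus.

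Blood cell markers differed over no stimulus. Neutrophil markers had a median of 0.77 over 4 genes and monocyte markers 0.35 over 5, against -0.01 and 0.05 over light touch. Of the neutrophil genes, S100a9 had 0.82 against no stimulus and -0.32 against light touch, S100a8 0.73 and -0.06, Csf3r 0.82 and 0.78, and Camp -0.19 and 0.03. T cell markers had -0.18 and -0.02, natural killer markers -0.01 and 0.01, and erythroid markers, whose precursors divide, 0.16 and -0.02. B cell markers had 0.24 and -0.06 over 4 genes, and no plasma cell marker had a value in leukocytes. The part of these in the cell cycle values was not tested.

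Cdk1 is one of 7 mitotic genes with a value on all 6 arrays, and it was above 0 in striatum and leukocytes and below 0 in salivary glands. In striatum it had 0.28 against no stimulus and 0.93 against light touch; the salivary values were -0.50 and -0.03 in the same order, and those of leukocytes 0.69 and 0.41. Of the 7 genes, Cdc20 and Racgap1 had the signs of Cdk1 on every array, and Ube2c, Kif23, Birc5 and Cdca3 did not. Mitotic genes whose window holds both a CHR and a CCAAT box and those whose window does not had medians of -0.38 (16 genes) and -0.44 (9 genes) on the salivary no-stimulus array. On the striatal arrays they had 0.29 (14 genes) and -0.01 (7 genes) over no stimulus, and 0.33 (12 genes) and 0.21 (6 genes) over light touch. The ranges of the 2 sets overlap on all 3 of these arrays. At 2-fold, Kif23 on the salivary no-stimulus array was the only other listed gene past the threshold on any array, against 0.931% of all genes there.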

How the data were processed

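The deposited table lists 44290 features on 6 arrays, with at most 1 ratio per feature and array as the authors made it: 12541 to 27590 features have a value on an array, 10744 on all and 12768 on none. Agilent Feature Extraction 9.1 is named in the submitters' processing notes. How values were normalized, which were left blank and which log base was taken is not stated in the sources used here. Labelling started from 500 ng of RNA per the labels. The deposited values were read as log2 ratios, Cy5 (tickled) over Cy3 (comparator). Features were joined to symbols through the platform annotation, updated by Entrez identifier with RefSeq (GRCr8): 23535 carried 1 symbol, 48 several and 20707 none; 23488 identifiers matched and 1 symbol was updated. Gene values are medians over features with 1 symbol. Since a comparison has 1 array, genes were counted past a size, 1.5-fold and 2-fold, with no test, beside the share of all genes past the same size. The counting was run on simulated data with planted changes well past 1.5-fold. That checks the code, and not whether small changes are real. Genes were named by a rule: listed genes 1.5-fold apart on any array, and the 3 highest and lowest per array. It also took the 3 widest differences between arrays of a tissue, and up to 4 genes each way of other lists. Not every value that this rule covers is printed. Promoter letters were searched in RefSeq windows, 1 per symbol. Python 3.11.15 and pandas 2.3.3 were used. The genes, lists and rule were chosen with earlier results of these data known, and the roles by which genes are ordered after the values were seen. Alternatives were centring, scaling, other summaries of probes, genes valued on all arrays, subtraction of other tissues, natural logs, symbols without update and a shorter promoter window.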

Additional observations from a re-analysis of the deposited data

Results flagged for a closer look

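The median of the mitotic genes over no stimulus had opposite signs in different tissues: -0.43 in salivary glands against 0.13 in striatum and 0.24 in leukocytes. Cdca3 was 1.5-fold apart in opposite directions over light touch, at 0.67 in striatum and -0.86 in leukocytes, each on its single probe. With 1 array for each tissue and comparator, none of these differences was tested.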

How the results depend on the processing

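No paired analysis was possible because each comparison is 1 array and the labels number no replicates. A median counts as moved here when it shifts by more than the median probe standard deviation of its array, which is not the error of a median. Of 53 recomputed mitotic medians 44 stayed within that, and of 53 replication medians 47 did. With the median of the other tissues subtracted from each gene, the mitotic medians over no stimulus were 0.26 in striatum and -0.63 in salivary glands, and over light touch 0.51 and -0.20. Read as natural logs, the mitotic medians were -0.62 (salivary, no stimulus) and 0.38 (striatum, light touch), and the salivary replication median over no stimulus was -0.45. Scaling the arrays to 1 spread gave 0.47 for the striatal mitotic and 0.20 for the replication median over light touch, and -0.36 for the median difference of mitotic genes between the striatal arrays, which was -0.18 unscaled. Over genes with 2 or more probes of 1 sign, replication medians were 0.20 over 3 genes (striatum, no stimulus), -0.0612 over 2 genes (striatum, light touch, a turned sign) and -0.43 over 5 genes (salivary, no stimulus); the leukocyte mitotic value over light touch was -0.20, of 1 gene, and fewer genes entered each. The probe nearest to 0 gave 0.0118 for the striatal replication median over light touch, and genes with a value on all arrays gave 0.23 for the leukocyte mitotic median over light touch.

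Counts at 1.5-fold were small and moved more. Some settings leave fewer genes, so each count is given with the number of genes that entered. Genes higher over no stimulus in striatum were 1 of 34 as reported. They numbered 3 of 34 with scaling, and 4 of 34 with the other tissues subtracted or as natural logs. With agreeing probes they were 0 of 6, and with values on all arrays 0 of 13. Over light touch they numbered 8 of 29 as reported, and 1 of 6 and 4 of 13 in those last settings. After subtraction 1 of 29 was lower. Salivary genes lower over no stimulus numbered 6 of 40 as reported, 19 of 34 after subtraction and 22 of 40 as natural logs. They numbered 3 of 12 with agreeing probes and 2 of 13 with values on all arrays. Those higher numbered 0 of 12 and 1 of 13 in the last 2 settings. Over light touch, salivary genes higher numbered 0 of 11 with agreeing probes, 0 of 13 with values on all arrays and 0 of 34 after subtraction. After subtraction 4 of 34 were lower. In leukocytes, genes higher over no stimulus numbered 0 of 14 with scaling or subtraction, 0 of 1 with agreeing probes and 3 of 14 as natural logs. Over light touch 2 of 14 were higher as natural logs. Lower there were 0 of 14 with scaling and 0 of 1 with agreeing probes. Natural logs multiply every value by 1.44 and scaling multiplies the values of an array by a constant, so counts past a fixed size move with them. The cause of the other shifts was not tested where the number of genes stayed the same. In the bases before the start alone, a CHR of the first form was in 46.2% of mitotic windows, against 16.03% of all windows. Either form was in 50.0%, against 17.3%. Both CHR and CCAAT box were in 46.2% of mitotic windows (12 of 26), against 6.22% of all windows. E2F letters were in 71.4% of replication windows (5 of 7), against 1.81%. A CCAAT box was in 80.8% of mitotic windows, against 34.3%. Of all windows, 1.5005% held the second form of the CHR. Signal over background is not given, so what dim probes limit is unknown.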
